A study of Rattus norvegicus with 9 samples.

Results

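The genes examined here encode the subunits of potassium, calcium and sodium channels, the proteins that set and carry the electrical activity of islet cells. They were chosen by rat gene symbol: Kcn or Cacn followed by a letter or digit, or Scn followed by a digit. The array annotation lists 178 probe sets of 111 such genes. A gene was kept where its brightest probe set had a mean log2 signal over the 9 arrays above the lowest 33.3% of the array, a value of 4.95, and that probe set stood for the gene. This left 80 of the 11619 genes with a tested probe set: 54 potassium, 18 calcium and 8 sodium channel genes. The other 31 lay below that level, among them Kcnd3, Kcnc1, Cacnb4, Scn1a, Scn2a, Scn8a and Scn9a, and are not described further. Just below the level were Kcns1 at 4.82, Cacng8 at 4.85 and Kcnk10 at 4.86, and just above it Kcnn3 at 5.02, Cacng4 at 5.08 and Kcnn4 at 5.08.

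RNA was extracted from islets of male ZDF rats (fa/fa; Zucker Diabetic Fatty), a strain whose defective leptin receptor leads to obesity and diabetes; all 3 groups carried this genotype and ate the same Purina diet. Rosiglitazone, an insulin sensitiser that activates PPAR gamma, a nuclear receptor, was given in food (3 mg for each kg of body weight). The treated group received it from week 5 and was taken at 9 weeks of age, still on the drug. The withdrawal group had the drug from week 5 to week 9 and was taken 2 weeks after it stopped, at 11 weeks of age, and the untreated group, which never had it, was taken at 13 weeks. Each group had 3 arrays, labelled biological replicates, and age differed with treatment in all comparisons, so the effects of drug and age cannot be told apart. No lean or age-matched group was analysed here.

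In a beta cell, the ATP-sensitive potassium channel holds the membrane at rest and closes as glucose is metabolised. The cell then depolarises, voltage-gated calcium channels open, and calcium entry triggers insulin release. Voltage-gated sodium channels shape the upstroke of the action potential, and voltage- and calcium-activated potassium channels end it. Auxiliary subunits do not form a pore but set how many channels reach the membrane and how they open and close.

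The deposited values are log2 signals, and all differences below are log2 differences between group means with the standard error (SE) of a limma fit over the 9 arrays, 3 in each group. A difference passed where its Benjamini-Hochberg adjusted p over the 20695 tested probe sets was under 0.05. The treated arrays had a wider range of values (standard deviation of log2 1.84 to 2.00) than the withdrawal (1.65 to 1.72) and untreated arrays (1.66 to 1.77). Bright probe sets differed as a body: the brightest 10% had a median of 0.53 in treated minus untreated and of -0.72 in withdrawal minus treated islets, against -0.03 and 0.058 for the dimmest 10%. Of the 80 channel genes, 3 belong to the brightest 10% (Kcnj11, Kcnma1 and Kcnip3) and 10 to the dimmest 10%. Shares and medians over all tested probe sets, given below for comparison, are not matched to the channel genes in brightness. Where a difference that passed moved by over 1.5 times when the arrays were quantile-normalized to a common distribution, that value is given too.

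Markers of islet and other cells also differed between the groups. Of 7 beta cell markers measured, 3 were higher in treated than in untreated islets and 4 were lower in withdrawal than in treated islets, with a mean log2 of 11.88 to 12.04 on treated, 11.15 to 11.36 on withdrawal and 11.35 to 11.64 on untreated arrays. After quantile normalization 0 of the 7 beta cell markers passed in treated minus untreated islets and 3 were lower in withdrawal than in treated islets. Of 3 delta cell markers, 2 were higher in treated than in untreated islets and 2 lower in withdrawal than in treated islets, with 8.98 to 9.44, 8.07 to 8.24 and 8.22 to 8.46 on the 3 kinds of array in the same order. Both markers of PP cells moved the same way, as did 1 and 2 of 4 alpha cell markers in the comparisons in that order. Of 3 lymphocyte markers, 2 were lower in treated than in untreated islets and 2 higher in withdrawal than in treated islets, with 5.39 to 5.61, 5.94 to 6.24 and 5.85 to 6.06. Of 6 Schwann cell and nerve markers, 0 passed between treated and untreated islets and 2 between withdrawal and treated islets, 1 higher and 1 lower, with 6.14 to 6.75, 6.50 to 6.64 and 6.47 to 6.60. The acinar markers were bright on all arrays, at 13.74 to 13.93, and 1 of 7 passed, higher in treated than in untreated islets. None of the duct (3), endothelial (4), smooth muscle and pericyte (6), stellate (5) or macrophage markers (3) passed in treated minus untreated islets, while 2 endothelial markers and 1 duct marker were lower in withdrawal than in treated islets. After quantile normalization 3 endothelial, 2 smooth muscle and pericyte, 1 stellate and 1 other acinar marker were lower in treated than in untreated islets. On that scale 4 stellate, 3 smooth muscle and pericyte, 1 endothelial and 1 macrophage marker were higher in withdrawal than in treated islets. Of the 4 alpha cell markers, 1 was then higher and 1 lower in each of these comparisons. The treated arrays also differed among themselves, from 9.68 to 11.45 in the stellate and from 7.80 to 9.74 in the macrophage markers. The part of cell makeup in the channel differences was not tested. In whole islets, fewer cells of a type and less RNA per cell cannot be told apart.

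The question put by the treated and untreated arrays is how islets on the drug differ from islets of older animals that never had it. Islets on rosiglitazone had more RNA for the ATP-sensitive channel pore Kcnj11, the ERG channels Kcnh2 and Kcnh6, the A-type channel partner Kcnip1 and the sodium channel genes Scn2b, Scn3b and Scn7a. They had less RNA for the ether-a-go-go channel Kcnh1 and the N-type calcium channel Cacna1b. These differences lay between 0.56 (Scn3b) and 1.14 (Scn2b) upward and were -0.90 (Kcnh1) and -0.98 (Cacna1b) downward. That of Scn3b did not pass after quantile normalization. Kcnma1, Kcna2 and Cacna1d also passed, but their probe sets differed in direction. In all, 18 of the 80 genes passed (22.5%), 12 higher and 6 lower, beside 28.1% of all tested probe sets (20.9% higher, 7.24% lower). The share of channel genes that passed was near the array's own. The median difference of the 80 genes was -0.023, against 0.16 over all tested probe sets. After quantile normalization these medians were -0.030 and 0.016. Values of 25 genes (31.2%) did not overlap between the groups, against 42.9% of all tested probe sets. Without untreated array 2 the count was 10, 8 higher and 2 lower, with 9.82% of all probe sets passing.

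The withdrawal and treated arrays ask what differed 2 weeks after the drug stopped. Withdrawal islets had less RNA for Scn2b, Kcnj11, Kcnip1, Cacnb2, Kcnh6 and Scn7a, and more for Kcnh1, Cacna1b, the acid-sensitive channel Kcnk9, the halothane-inhibited channel Kcnk13 and the inward rectifier Kcnj2. The sizes ran from -0.88 (Scn7a) to -1.20 (Scn2b) for the first set and from 0.69 (Kcnj2) to 1.02 (Kcnh1) for the second. On the deposited scale the further probe sets of Cacnb2 did not pass. Of the 80 genes, 34 passed (42.5%), 17 higher and 17 lower, beside 43.8% of all tested probe sets, of which 11.2% were higher and 32.6% lower. The median difference was 0.053, against -0.19 over all tested probe sets. After quantile normalization these medians were 0.13 and -0.033. Values of 38 genes (47.5%) did not overlap, against 53.9%. Without withdrawal array 1 the count was 22, 7 higher and 15 lower, with 29.9% of all probe sets passing. Of the 80 genes, 35 passed in at least 1 of the comparisons with treated islets and 45 in neither. This comparison uses the same treated arrays as the one before, so values of a gene in both are given side by side and not as support for each other.

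**Figure D1:**
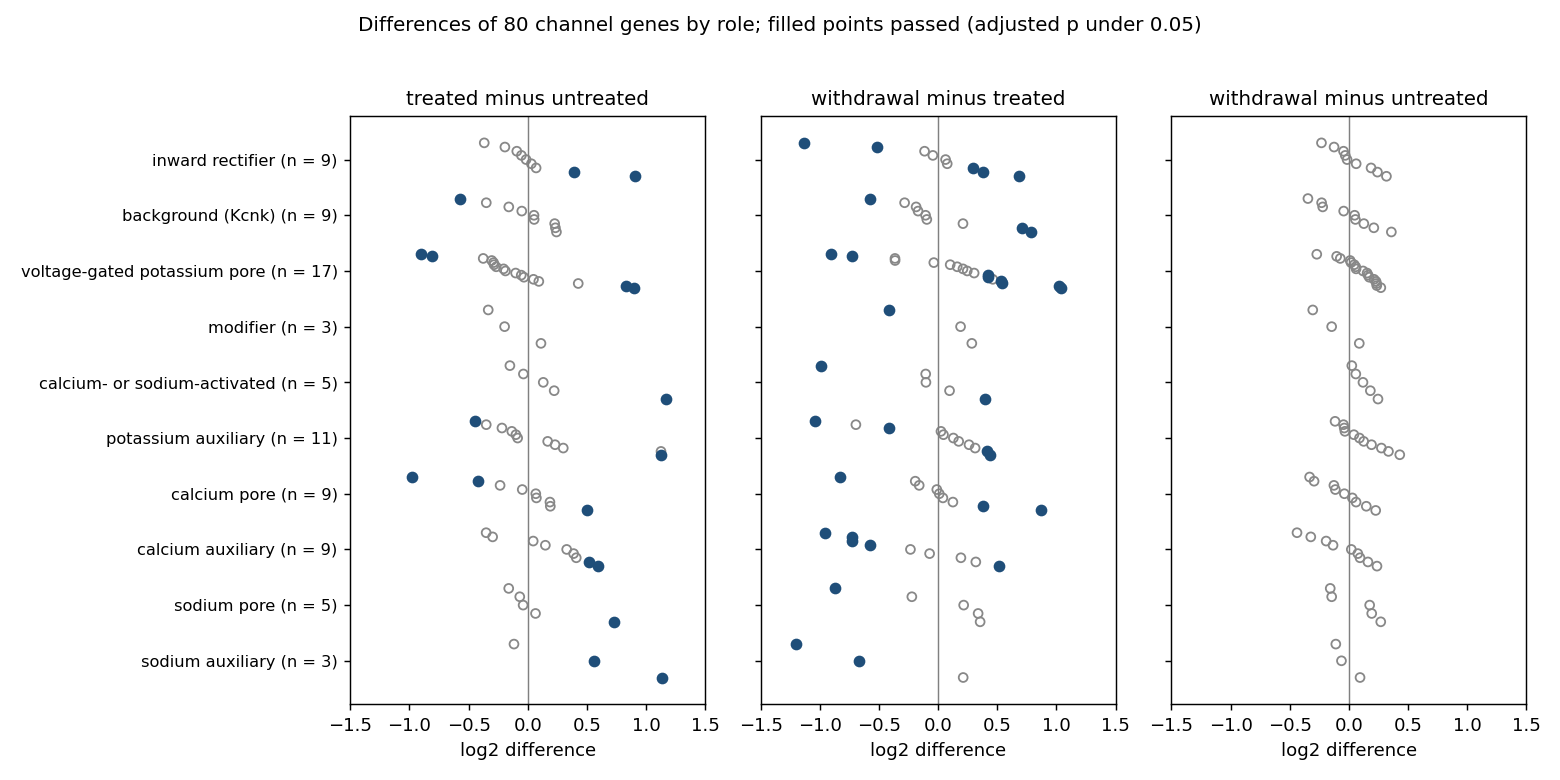
Log2 differences of the 80 channel genes in the 3 comparisons (x axis), grouped by role (y axis, n genes each); each point is 1 gene, and filled points passed at an adjusted p under 0.05. Filled points lie on both sides of 0 in the comparisons with treated islets (18 and 34 genes), and none is filled in withdrawal minus untreated.

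Among the 9 inward rectifiers, 2 passed in treated minus untreated islets (22.2%, against 28.1% of all tested probe sets), both higher. Kcnj11, the pore of the ATP-sensitive channel, had log2 signals of 10.33, 9.90 and 9.85 on the treated arrays, 8.90, 8.72 and 9.05 on the withdrawal arrays and 9.39, 8.87 and 9.11 on the untreated arrays. The treated arrays all lay above the others, and the withdrawal and untreated arrays overlapped. Kcnj11 was 1.87-fold higher in treated than in untreated islets, a difference of 0.90 ± 0.17 (adjusted p = 0.00489), and 2.2-fold lower in withdrawal than in treated islets, at -1.14 ± 0.17 (adjusted p = 0.00103). After quantile normalization these became 0.35 (adjusted p = 0.0486) and -0.43 (adjusted p = 0.0143). Further probe sets of Kcnj11, dimmer than the one used, gave 1.01 and 1.04 in treated minus untreated islets and -1.03 and -0.93 in withdrawal minus treated islets, and all 4 values passed. After quantile normalization they were smaller, at 0.63 and 0.88, and at -0.56 and -0.75, and all 4 still passed. Abcc8, the sulfonylurea receptor that surrounds the Kcnj11 pore, differed by 0.25 ± 0.15 between treated and untreated islets, which did not pass (adjusted p = 0.237). In withdrawal minus treated islets Abcc8 was lower, at -0.80 ± 0.15 (adjusted p = 0.00262), and -0.25 after quantile normalization, which did not pass (adjusted p = 0.178).

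Kcnj5, a subunit of G protein-gated channels that inhibitory receptors open, read 6.45, 6.58 and 6.49 on the treated arrays, 5.98, 5.96 and 6.03 on the withdrawal arrays and 5.99, 6.14 and 6.23 on the untreated arrays. Treated arrays lay above both other groups, with 0.39 ± 0.12 against untreated (adjusted p = 0.0282) and -0.52 ± 0.12 for withdrawal minus treated (adjusted p = 0.00496). The first call was lost without treated array 2, untreated array 1 or untreated array 2 (adjusted p up to 0.103) and after quantile normalization (adjusted p = 0.0519). A further probe set of Kcnj5 gave differences of the other sign, -0.31 and 0.29, neither of which passed. Its partners Kcnj3 and Kcnj6 differed by -0.053 and 0.071 in treated minus untreated islets, and neither passed. Kcnj2, a strong inward rectifier that steadies the resting potential, read 4.91, 5.06 and 5.01 on the treated arrays, 6.10, 5.43 and 5.50 on the withdrawal arrays and 5.30, 5.42 and 5.35 on the untreated arrays. Its withdrawal values were the highest and its treated values the lowest, with no overlap between any of the groups, and withdrawal minus treated was 0.69 ± 0.17 (adjusted p = 0.00696). Kcnj3 (0.30) and Kcnj4 (0.38) also passed there, but the call of Kcnj3 was lost without any 1 of the 9 arrays (adjusted p up to 0.148), and that of Kcnj4 in 7 of 9 such fits, all but those without treated array 2 or withdrawal array 3 (up to 0.165). Kcnj8, the ATP-sensitive pore of vascular muscle, was at 0.031 and -0.045, and neither passed.

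The 17 voltage-gated potassium pores split: 2 were higher and 2 lower in treated than in untreated islets, and 6 were higher and 2 lower in withdrawal than in treated islets. Those that passed made up 23.5% and 47.1%, against 28.1% and 43.8% of all tested probe sets. Kcnh2, the ERG channel that repolarises heart and islet cells, read 7.95, 7.82 and 7.80 on the treated arrays, 7.22, 7.16 and 7.0 on the withdrawal arrays and 7.13, 6.77 and 6.98 on the untreated arrays. Its relative Kcnh6 read 6.98, 7.25 and 7.39 on the treated arrays, 6.42, 6.17 and 6.32 on the withdrawal arrays and 6.52, 6.30 and 6.30 on the untreated arrays. In both genes all treated arrays lay above all others. Treated minus untreated was 0.90 ± 0.13 for Kcnh2 and 0.83 ± 0.14 for Kcnh6 (adjusted p = 0.00178 and 0.0029), and withdrawal minus treated was -0.73 ± 0.13 and -0.91 ± 0.14 (adjusted p = 0.00182 and 0.00107). After quantile normalization the value of Kcnh2 in withdrawal minus treated islets was -0.43, and all 4 differences still passed. Kcnh1, the ether-a-go-go channel first known from nerve and many tumours, was the reverse, at 5.82, 5.90 and 6.06 on the treated arrays, 7.12, 7.03 and 6.69 on the withdrawal arrays and 6.73, 6.96 and 6.79 on the untreated arrays. All its treated values lay below the others, with -0.90 ± 0.14 against untreated islets (adjusted p = 0.00228), and it was 2.03-fold higher in withdrawal than in treated islets (1.02 ± 0.14, adjusted p = 0.000797). Genes of the same Kcnh family passed in both directions; the related Kcnh3, Kcnh4 and Kcnh8 did not pass in either comparison.

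Kcna2, a Shaker-type delayed rectifier, read 6.38, 6.88 and 7.18 on the treated arrays, 7.93, 7.94 and 7.69 on the withdrawal arrays and 7.49, 7.87 and 7.50 on the untreated arrays. Treated arrays were the lowest, at -0.81 ± 0.19 against untreated (adjusted p = 0.0115; 0.0618 without untreated array 2), and withdrawal minus treated was 1.04 ± 0.19 (adjusted p = 0.00203). A further probe set of Kcna2 gave the other sign, 0.32, which did not pass, and -0.53, which did (adjusted p = 0.0265), so the direction for Kcna2 depends on the probe set. After quantile normalization the values of this further probe set were 0.12 and -0.29, and neither passed (adjusted p = 0.683 and 0.246). Kcna1 (0.42), the Shaw-type Kcnc4 (0.54), the A-type Kcnd2 (0.43) and the M-current subunit Kcnq3 (0.53) were higher in withdrawal than in treated islets. All 4 calls were lost when certain single arrays were left out. For Kcna1 this held for each array but treated array 1, treated array 2 and untreated array 2 (adjusted p up to 0.139). For Kcnc4 it held for treated array 3, withdrawal array 1 and withdrawal array 2 (up to 0.0946), and for Kcnd2 for treated array 1 and the same withdrawal arrays (up to 0.129). For Kcnq3 it held for treated arrays 1 and 3 and withdrawal arrays 1 and 3 (up to 0.107). A further probe set of Kcnq3 gave 0.045 in withdrawal minus treated islets and did not pass (adjusted p = 0.841). The delayed rectifiers Kcnb2 and Kcna5 and the slow rectifier Kcnq1 differed by -0.29, 0.094 and -0.032 in treated minus untreated islets and by 0.46, -0.36 and 0.25 in withdrawal minus treated islets, and none passed. Of the 3 modifier subunits, which form channels only with other pores, Kcng2 was lower in withdrawal than in treated islets (-0.42), a call lost without treated array 2, withdrawal array 1 or withdrawal array 3 (adjusted p up to 0.128).

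Of the 9 background (Kcnk) channels, whose leak current sets the resting potential, 1 passed in treated minus untreated islets and 3 in withdrawal minus treated islets. These were 11.1% and 33.3%, against 28.1% and 43.8% of all tested probe sets. Kcnk9, an acid-sensitive leak channel, read 4.68, 5.33 and 4.91 on the treated arrays, 5.83, 5.92 and 5.52 on the withdrawal arrays and 5.32, 5.81 and 5.51 on the untreated arrays. Treated values were lower than untreated ones by -0.57 ± 0.19 with a small overlap (adjusted p = 0.0401), a call lost in 6 of 9 fits that left out 1 array (all but those without treated array 2, withdrawal array 3 or untreated array 1; adjusted p up to 0.167) and after quantile normalization (adjusted p = 0.0554). Withdrawal values of Kcnk9 all lay above treated ones, by 0.78 ± 0.19 (adjusted p = 0.00646). Kcnk13 was also higher in withdrawal than in treated islets (0.71 ± 0.18, adjusted p = 0.00852), and Kcnk1 was lower (-0.57 ± 0.14, adjusted p = 0.0076). Kcnk3, another acid-sensitive channel, differed by -0.05 and -0.17, and neither passed; the second value was 0.22 after quantile normalization. A further probe set of Kcnk3 passed in withdrawal minus treated islets under both scalings, at -0.52 (adjusted p = 0.0161) and -0.60 after quantile normalization (adjusted p = 0.0129). Kcnk16, known for its high expression in the pancreas, was not analysed here.

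Among the 5 calcium- or sodium-activated potassium channels, Kcnma1 had the largest difference. This large-conductance channel, opened by calcium and voltage together, read 10.05, 9.62 and 9.54 on the treated arrays, 8.88, 8.57 and 8.78 on the withdrawal arrays and 8.86, 8.20 and 8.62 on the untreated arrays. Treated arrays lay above both other groups, at 1.17 ± 0.19 against untreated (2.25-fold, adjusted p = 0.00235). Withdrawal minus treated was -0.99 ± 0.19 (adjusted p = 0.00228). After quantile normalization the first value was 0.67, which still passed, and the second -0.33, which did not (adjusted p = 0.0806). Of its further probe sets, 1 gave 0.53 in treated minus untreated islets (adjusted p = 0.00893) and the other -0.95 (adjusted p = 0.0194); the second gave 1.06 in withdrawal minus treated islets (adjusted p = 0.00706). The mean over the probe sets of Kcnma1 was 0.25 and -0.04, and neither passed. Kcnma1 thus had probe sets that passed in opposite directions, and no direction can be given for the gene as a whole. Kcnn4, the intermediate-conductance channel, was 0.40 higher in withdrawal than in treated islets; the call was lost in 8 of 9 fits that left out 1 array (all but the one without treated array 1; adjusted p up to 0.149) and after quantile normalization. Kcnn1, Kcnn3 and the sodium-activated Kcnt1 did not pass in either comparison.

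Of the 11 auxiliary potassium subunits, Kcnip1 had the smallest p of all 80 genes in treated minus untreated islets. It encodes a calcium-binding partner of A-type channels and read 7.67, 7.59 and 7.37 on the treated arrays, 6.55, 6.54 and 6.42 on the withdrawal arrays and 6.18, 6.41 and 6.65 on the untreated arrays. The treated values lay above all others, by 1.13 ± 0.14 against untreated (2.19-fold, adjusted p = 0.000981), and withdrawal minus treated was -1.04 ± 0.14 (adjusted p = 0.000797). The values of Kcnip1 after quantile normalization were 0.94 and -0.83, and both passed. Kcnip3, a relative that also acts as a calcium-dependent repressor of transcription, was -0.42 ± 0.12 in withdrawal minus treated islets (adjusted p = 0.0151; 0.0818 without withdrawal array 2). Its sign turned after quantile normalization, to 0.26 (adjusted p = 0.142). A further probe set of Kcnip3 kept its sign under both scalings, at 0.47 in treated minus untreated (adjusted p = 0.0364; 0.46 after quantile normalization, which did not pass) and -0.38 in withdrawal minus treated islets, which did not pass. Kcne4, an inhibitory single-span subunit, was lower in treated than in untreated islets (-0.44 ± 0.13, adjusted p = 0.0271) and higher in withdrawal than in treated islets (0.41 ± 0.13, adjusted p = 0.0239). The first call was lost without treated array 3 or any 1 of the untreated arrays (adjusted p up to 0.0786) and the second without treated array 2 or 3 or withdrawal array 2 or 3 (adjusted p up to 0.0901). Kcne3 was higher in withdrawal than in treated islets (0.44), a call lost without treated array 2 or 3 or withdrawal array 1 or 2 (adjusted p up to 0.119). Kcne1, the partner of Kcnq1 in heart, had treated values of 7.32, 9.41 and 8.65 and untreated values of 6.93, 7.40 and 7.67. The difference of Kcne1, at 1.13 ± 0.40, did not pass (adjusted p = 0.0524).

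**Figure D2:**
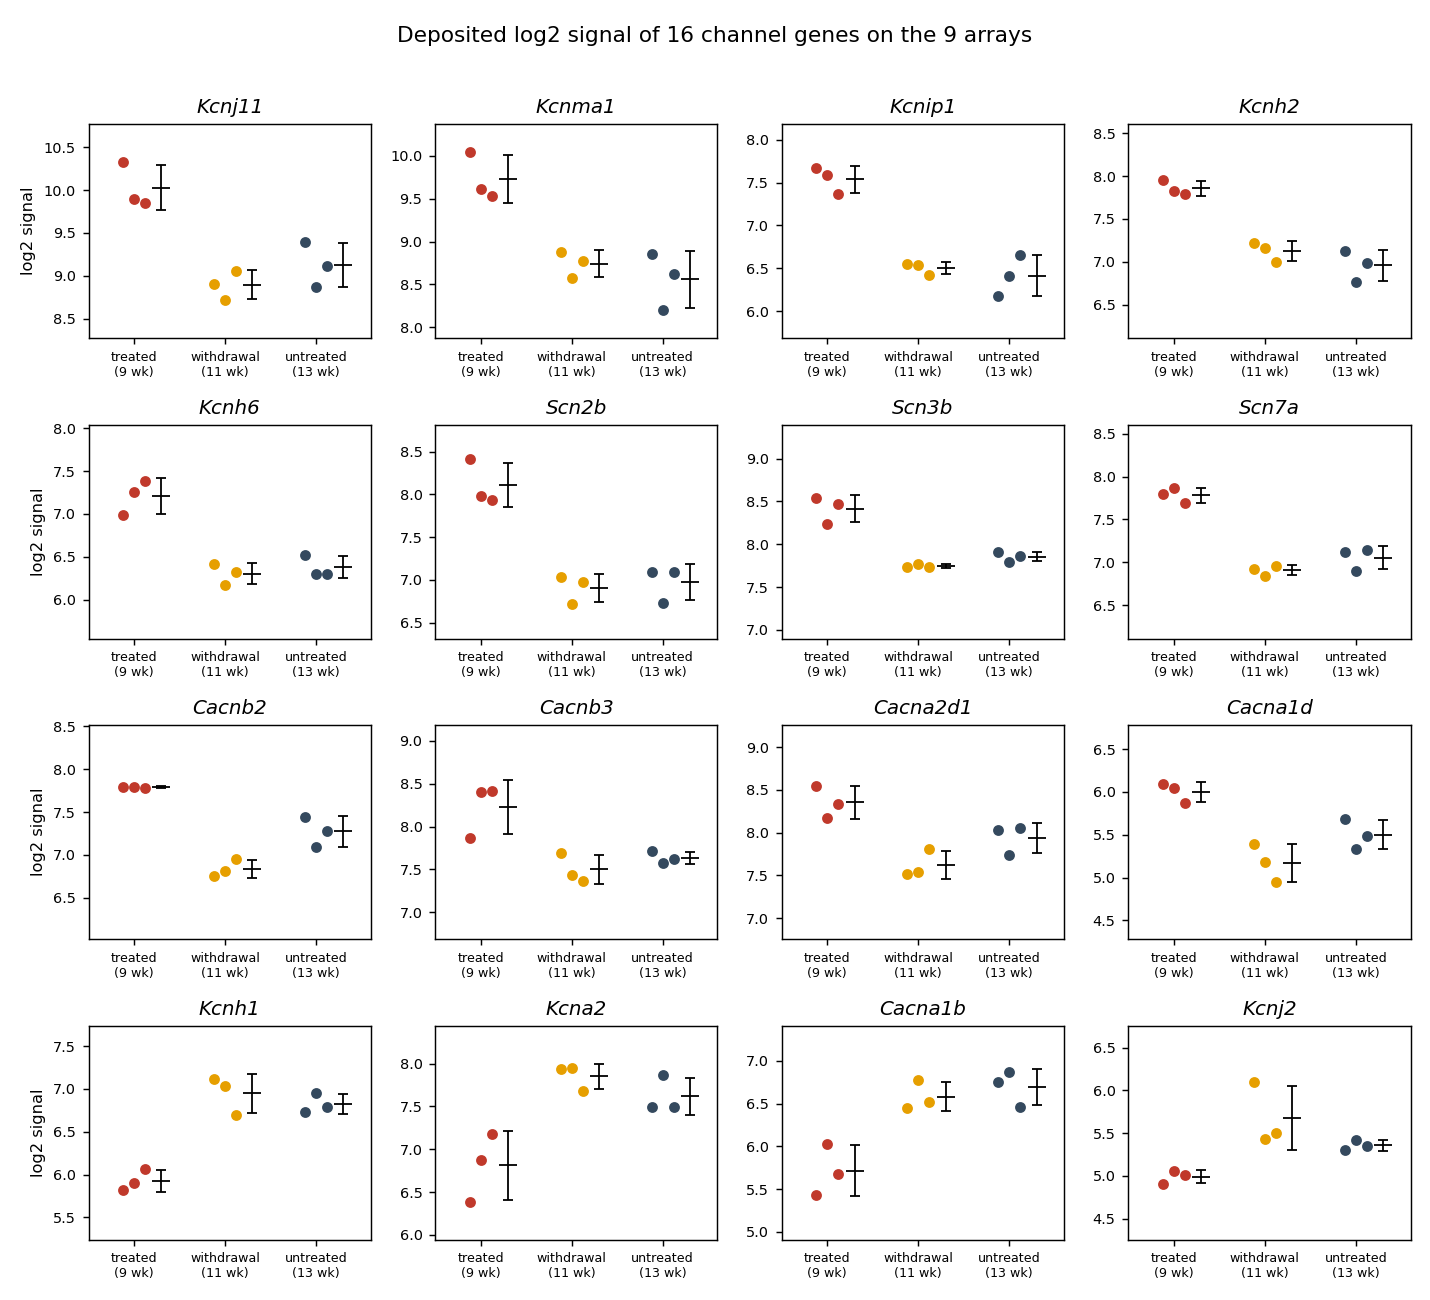
Deposited log2 signal (y axis, each panel spanning the same range) of 16 channel genes on the 9 arrays by group (x axis, with age in weeks); coloured points are arrays, and the bar beside them is the mean ± SD of 3 arrays. The treated points lie above both other groups in the panels from Kcnj11 to Cacna1d and below them in Kcnh1, Kcna2, Cacna1b and Kcnj2; in Cacnb2, Scn3b and Kcnj2 the withdrawal and untreated points do not overlap either.

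Of the 9 calcium channel pores, 1 was higher and 2 were lower in treated than in untreated islets (33.3% in all, against 28.1% of all tested probe sets). Cacna1d, an L-type pore that opens at modest depolarisation, read 6.09, 6.05 and 5.87 on the treated arrays, 5.39, 5.18 and 4.94 on the withdrawal arrays and 5.68, 5.34 and 5.49 on the untreated arrays. Treated values were the highest, at 0.50 ± 0.15 against untreated (adjusted p = 0.027) and with withdrawal minus treated at -0.83 ± 0.15 (adjusted p = 0.00179). The first call was lost without untreated array 2 or 3 (adjusted p up to 0.115). Further probe sets of Cacna1d gave the other sign, -0.18 and -0.46 in treated minus untreated islets, the latter past the threshold (adjusted p = 0.0202), and 0.40 and 0.49 in withdrawal minus treated islets, both past it. No direction can therefore be given for Cacna1d as a gene. The probe set at -0.46 had treated values of 4.51, 4.78 and 4.62, below the filter level of 4.95. It was kept through its withdrawal and untreated values, so it is weak support for a reversal. Cacna1c, another L-type pore, read 5.76, 5.60 and 5.48 on the treated arrays, 5.67, 5.74 and 5.79 on the withdrawal arrays and 6.0, 6.01 and 6.08 on the untreated arrays. Untreated values lay above both other groups, and treated minus untreated was -0.42 ± 0.12 (adjusted p = 0.023), while withdrawal minus treated was 0.12 ± 0.12 and did not pass (adjusted p = 0.409). The call of Cacna1c was lost without treated array 3 or any 1 of the untreated arrays (adjusted p up to 0.0668).

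Cacna1b, the N-type pore best known from nerve terminals, read 5.43, 6.03 and 5.68 on the treated arrays, 6.45, 6.77 and 6.52 on the withdrawal arrays and 6.75, 6.87 and 6.46 on the untreated arrays. Treated values lay below all others. Treated minus untreated was -0.98 ± 0.17 (1.97-fold lower, adjusted p = 0.00336) and withdrawal minus treated 0.87 ± 0.17 (adjusted p = 0.00275). Quantile normalization left the values of Cacna1b at -0.99 and 0.89. The T-type pore Cacna1h was higher in withdrawal than in treated islets (0.38; 0.60 after quantile normalization), a call lost in 6 of 9 fits that left out 1 array (all but those without treated array 1, withdrawal array 2 or untreated array 2; adjusted p up to 0.158). A further probe set of Cacna1h had the other sign there, at -0.19, and did not pass. The P/Q-type Cacna1a, the R-type Cacna1e and the T-type Cacna1g were at 0.074, 0.19 and -0.046 in treated minus untreated islets and at -0.012, -0.16 and 0.0088 in withdrawal minus treated islets, and none passed.

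Among the 9 auxiliary calcium subunits, 2 passed in treated minus untreated islets, both higher, and 5 in withdrawal minus treated islets, 4 of them lower. These were 22.2% and 55.6%, against 28.1% and 43.8% of all tested probe sets. After quantile normalization 0 and 3 of the 9 passed. Cacnb2, a beta subunit that brings the pore to the membrane, read 7.80, 7.80 and 7.78 on the treated arrays, 6.75, 6.81 and 6.96 on the withdrawal arrays and 7.45, 7.09 and 7.28 on the untreated arrays. The groups did not overlap: treated was highest, untreated next and withdrawal lowest. Treated minus untreated was 0.52 ± 0.13 (adjusted p = 0.013), and 0.27 after quantile normalization, which did not pass (adjusted p = 0.122); without untreated array 2 the adjusted p was 0.0622. Withdrawal minus treated was -0.96 ± 0.13 (1.94-fold lower, adjusted p = 0.000759), the smallest p of the 80 genes in that comparison. Further probe sets of Cacnb2, dimmer than the one used, gave 0.39 and 0.045 in treated minus untreated islets. They gave -0.35 and 0.011 in withdrawal minus treated islets, and none of these values passed. Cacnb3, a sister subunit, read 7.87, 8.40 and 8.41 on the treated arrays, 7.70, 7.43 and 7.37 on the withdrawal arrays and 7.71, 7.57 and 7.62 on the untreated arrays. Its treated values were the highest, with 0.60 ± 0.16 against untreated (adjusted p = 0.0192) and -0.73 ± 0.16 for withdrawal minus treated (adjusted p = 0.00445). After quantile normalization these were 0.29 and -0.36, and neither passed (adjusted p = 0.302 and 0.166). The first was also lost without treated array 3, untreated array 2 or untreated array 3 (adjusted p up to 0.0764).

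Cacna2d1, which helps calcium channels reach the surface and is the target of gabapentin, read 8.55, 8.18 and 8.33 on the treated arrays, 7.52, 7.54 and 7.81 on the withdrawal arrays and 8.03, 7.74 and 8.05 on the untreated arrays. Withdrawal values lay below treated ones, at -0.73 ± 0.15 (adjusted p = 0.00287), and -0.33 after quantile normalization (adjusted p = 0.0358). Treated minus untreated, at 0.41 ± 0.15, did not pass (adjusted p = 0.0536). Among the Cacng genes, several of which traffic glutamate receptors, Cacng2 was lower in withdrawal than in treated islets (-0.58; -0.30 after quantile normalization, which did not pass) and Cacng5 higher (0.51). Another Cacng2 probe set had the other sign, 0.40 there and -0.41 in treated minus untreated islets, without overlap, and neither passed. The call of Cacng2 was lost without treated array 2 or 3 or withdrawal array 1 or 3 (adjusted p up to 0.101), and that of Cacng5 without withdrawal array 1 or 2 (adjusted p up to 0.0721). Cacnb1 and Cacng4 did not pass in either comparison.

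Of the 8 sodium channel genes, 3 were higher in treated than in untreated islets (37.5%, against 28.1% of all tested probe sets) and 5 did not pass, with a median difference of 0.014. In withdrawal minus treated islets 3 were lower and 5 did not pass (37.5% against 43.8%). After quantile normalization 2 passed in each comparison. Scn2b, a beta subunit with an immunoglobulin fold that anchors and modulates sodium channels, read 8.41, 7.98 and 7.93 on the treated arrays, 7.03, 6.72 and 6.97 on the withdrawal arrays and 7.09, 6.73 and 7.09 on the untreated arrays. Its relative Scn3b, a beta subunit found in islets, read 8.54, 8.24 and 8.47 on the treated arrays, 7.73, 7.77 and 7.73 on the withdrawal arrays and 7.90, 7.79 and 7.86 on the untreated arrays. Scn7a, an atypical pore that senses sodium rather than voltage, read 7.79, 7.87 and 7.69 on the treated arrays, 6.92, 6.84 and 6.96 on the withdrawal arrays and 7.12, 6.90 and 7.14 on the untreated arrays. In all 3 genes the treated arrays lay above both other groups. Treated minus untreated was 1.14 ± 0.16 for Scn2b, 0.56 ± 0.12 for Scn3b and 0.73 ± 0.12 for Scn7a (adjusted p = 0.00169, 0.00783 and 0.00268). Withdrawal minus treated was -1.20 ± 0.16, -0.67 ± 0.12 and -0.88 ± 0.12 in the same order (adjusted p = 0.000789, 0.00183 and 0.000789). Scn3b lies in the second brightest 10% of probe sets, and after quantile normalization its values were 0.22 and -0.25, which did not pass (adjusted p = 0.154 and 0.0897), while those of Scn2b and Scn7a still passed. A further probe set of Scn3b gave 0.43 and -0.40, and both passed, but not after quantile normalization. Scn3a, a neuronal-type pore that islet cells carry, differed by 0.066 and -0.22, and neither passed; after quantile normalization both signs turned.

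**Figure D3:**
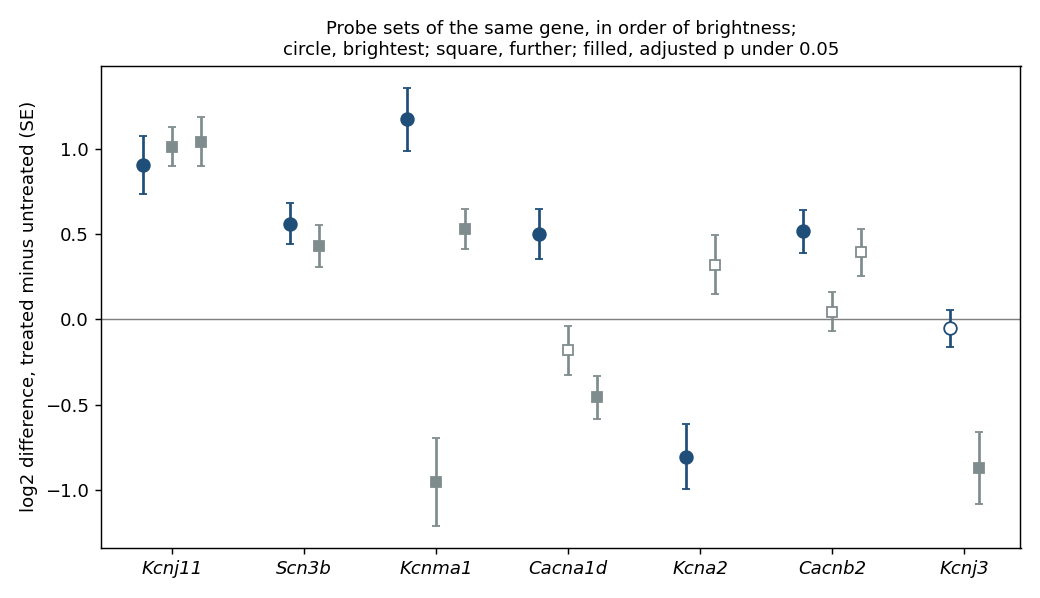
Log2 difference, treated minus untreated, with its SE (y axis), for each tested probe set of 7 channel genes (x axis); circles are the brightest probe set, squares the dimmer ones, and filled symbols passed at an adjusted p under 0.05. The probe sets of Kcnj11 lie together at 0.90 to 1.04, while those of Kcnma1 (1.17, -0.95 and 0.53) and Cacna1d (0.50, -0.18 and -0.46) lie on both sides of 0.

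Of the 80 genes, 25 had more than 1 tested probe set, with 31 further probe sets in all. Of the 11 further probe sets of genes that passed in treated minus untreated islets, 6 had the same sign as the brightest and 4 of these passed. In withdrawal minus treated islets the numbers were 11 of 19 and 6. In treated minus untreated islets a further probe set passed for 6 genes whose brightest did not. The values were 0.54 for Kcng2, 0.57 for the cytoplasmic subunit Kcnab2, 0.64 for the background channel Kcnk6, -0.53 for Kcnv2, 0.47 for Kcnip3 and -0.87 for Kcnj3. The Kcng2 probe set had untreated values of 4.71, 4.77 and 4.93 and a withdrawal mean of 4.76, below the filter level. It was kept through its treated values of 5.40, 5.44 and 5.21, so it is weak support for a difference in Kcng2. For Kcnj3 the brightest probe set gave -0.053 in treated minus untreated islets, which did not pass, while the further one had an adjusted p of 0.0129 there and gave 1.36 in withdrawal minus treated islets (adjusted p = 0.00114).

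Promoter windows were read for the genes, from 250 bases before to 50 bases after the annotated start in RefSeq on GRCr8. A window was found for 55 of the 80 genes. The 4 printed here belong to the pair with the smallest p in each direction in treated minus untreated islets for which a window was found, Kcnip1 and Scn2b upward and Kcnh1 and Cacna1b downward. They are given 5′ to 3′ along the gene's strand, at chr10:19092976-19093275 (minus strand) for Kcnip1, chr8:54322133-54322432 (plus strand) for Scn2b, chr13:106252966-106253265 (plus strand) for Kcnh1 and chr3:27944236-27944535 (minus strand) for Cacna1b. Capitals mark the letters GGGCGG, the core of the GC box bound by Sp1-type factors, and AGGTCA, the core element read by PPAR gamma and many other nuclear receptors, on either strand.
Kcnip1: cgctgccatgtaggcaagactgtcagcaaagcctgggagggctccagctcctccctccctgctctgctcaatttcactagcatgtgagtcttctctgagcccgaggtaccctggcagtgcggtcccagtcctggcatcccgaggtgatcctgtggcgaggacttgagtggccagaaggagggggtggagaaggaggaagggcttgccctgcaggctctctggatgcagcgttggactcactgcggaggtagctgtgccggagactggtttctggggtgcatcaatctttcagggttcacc
Scn2b: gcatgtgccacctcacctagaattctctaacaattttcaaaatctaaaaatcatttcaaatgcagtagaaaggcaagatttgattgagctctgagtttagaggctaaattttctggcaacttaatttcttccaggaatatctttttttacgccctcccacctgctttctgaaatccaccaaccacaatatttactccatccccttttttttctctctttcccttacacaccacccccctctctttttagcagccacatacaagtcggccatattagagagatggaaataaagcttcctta
Kcnh1: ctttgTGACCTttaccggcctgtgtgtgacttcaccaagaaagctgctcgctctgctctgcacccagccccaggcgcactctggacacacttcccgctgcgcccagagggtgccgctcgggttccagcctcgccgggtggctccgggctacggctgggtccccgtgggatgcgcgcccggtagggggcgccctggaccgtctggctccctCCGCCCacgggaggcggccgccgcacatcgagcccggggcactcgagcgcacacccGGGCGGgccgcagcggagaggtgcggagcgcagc
Cacna1b: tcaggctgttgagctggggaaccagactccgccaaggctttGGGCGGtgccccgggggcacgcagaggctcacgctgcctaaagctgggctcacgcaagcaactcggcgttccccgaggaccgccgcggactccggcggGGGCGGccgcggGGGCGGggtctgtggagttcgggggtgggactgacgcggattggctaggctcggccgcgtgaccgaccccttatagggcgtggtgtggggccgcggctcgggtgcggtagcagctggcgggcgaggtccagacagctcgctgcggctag

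The Kcnh1 window held GGGCGG at -40 and 17 from the start and AGGTCA at -245, and the Cacna1b window held GGGCGG at -209, -111 and -99. The Kcnip1 and Scn2b windows held neither. Over the 55 windows, 31 (56.4%) held GGGCGG, against 34.9% of the 27457 windows in the table, and 3 (5.45%) held AGGTCA, against 15.7%. The full PPAR element, a direct repeat of AGGTCA with 1 base between, searched as exact letters on both strands, was in 0 windows of the channel genes and in 0.0583% of all windows, and each match to it also holds AGGTCA. The cyclic AMP element TGACGTCA was in 0 windows against 1.91%, and the TATA box TATAAA in 1 (1.82%) against 14.3%. The windows of the channel genes had a median G and C content of 61.7% and a median of 13 CpG sites, against 52.3% and 7 over all windows. Of the 9 windows of genes higher in treated than in untreated islets, 7 held GGGCGG, and of the 5 of genes lower there, 4 did. These are matches of letters and say nothing of whether a factor binds.

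Withdrawal and untreated islets were compared to ask whether islets off the drug for 2 weeks differed from islets that never had it. None of the 80 genes passed in the limma fit, beside 0.159% of all tested probe sets (33 of 20695). At an unadjusted p under 0.05 there were 9 genes, beside 7.5% of all probe sets. These were Cacnb2, Cacna1c, Kcnk1, Cacna1d, Cacna2d1 and Kcng2, with values below those of untreated islets, and Kcnab2, Kcne3 and Kcnj3, with values above them; the further probe sets of Cacna1d had the other sign (0.22 and 0.036). Values of 12 genes (15.0%) did not overlap, against 18.0% of all tested probe sets. Cacnb2 came nearest, at -0.44 ± 0.13 (adjusted p = 0.361), but its further probe sets had the other sign, at 0.040 and 0.056, and did not pass. Kcnj11 differed by -0.23 ± 0.17, with a 95% interval of -0.61 to 0.14 (adjusted p = 0.837), and Kcnma1 had an interval of -0.22 to 0.59. For Kcnip1 it was -0.22 to 0.41, and for Kcnh1 -0.19 to 0.43. The intervals of these 4 genes hold 0. On the deposited scale they exclude differences as large as those of the same probe sets against treated islets. After quantile normalization the differences of Kcnj11 and Kcnma1 against treated islets were smaller, and intervals on that scale were not computed. With estimated array weights, which gave treated array 1 a weight of 0.163 and untreated array 2 one of 0.484, 13 genes passed (7 higher, 6 lower), beside 15.8% of all probe sets.

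The order of the group means was counted over the 80 genes as a description. It ran withdrawal, untreated, treated from high to low in 31 genes (38.8%), against 20.8% of all tested probe sets, and treated, untreated, withdrawal in 21 (26.2%), against 41.7%. After quantile normalization the first order held in 31 genes (38.8%) against 26.1%, and the second in 20 (25.0%) against 28.3%. The moderated F test over the groups passed for 24 genes, beside 37.0% of all tested probe sets.

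**Figure D4:**
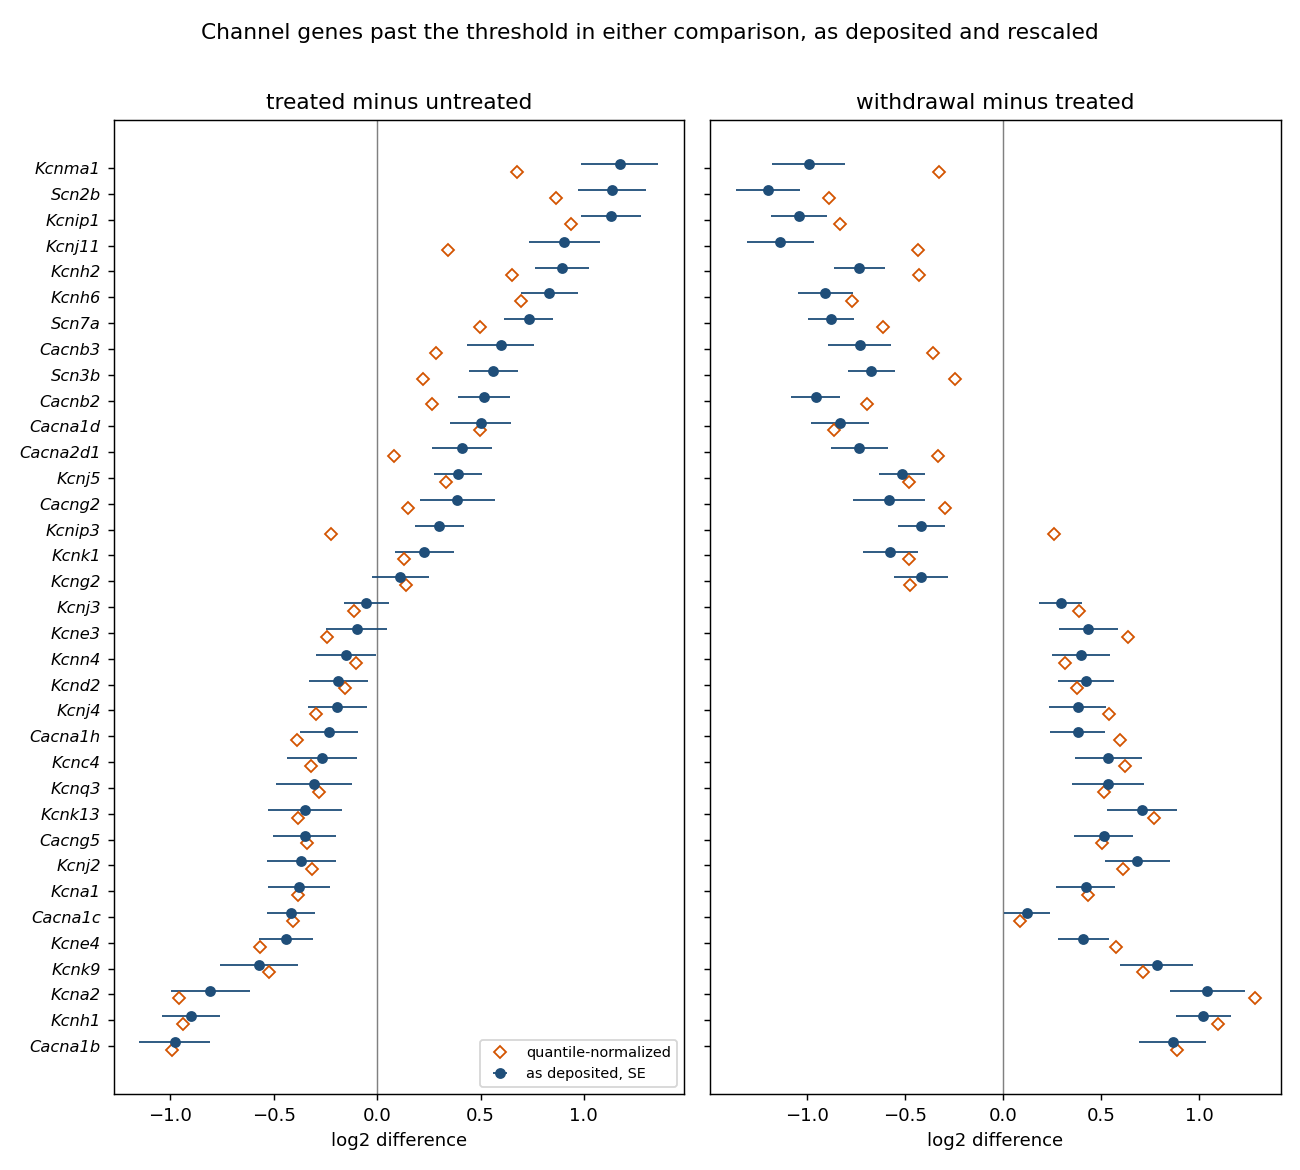
Log2 differences (x axis) of the 35 channel genes that passed in treated minus untreated (left) or withdrawal minus treated islets (right); filled circles with bars are the deposited values with SE, open diamonds the same differences after quantile normalization. The diamonds of bright genes such as Kcnj11 and Kcnma1 lie nearer to 0, those of Kcnh1, Kcna2 and Cacna1b do not, and that of Kcnip3 crosses 0 in both panels.

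Quantile normalization left 14 genes past the threshold in treated minus untreated islets, 8 higher and 6 lower, with 17.2% of all probe sets passing (7.75% higher, 9.44% lower). Of the 18 genes 13 passed in both settings, and Cacna1h passed only after it (-0.39, adjusted p = 0.0402). In withdrawal minus treated islets 28 of the 34 genes remained, 16 higher and 12 lower, with 29.1% of all probe sets passing (14.5% higher, 14.6% lower). The 10 genes that passed in treated minus untreated islets in every 1 of the 9 fits that left out an array were Kcnip1, Scn2b, Kcnh2, Kcnh1, Kcnma1, Scn7a, Kcnh6, Cacna1b, Kcnj11 and Scn3b. In withdrawal minus treated islets 20 of the 34 did so.

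Other genes of islet cell excitability, from a list of 82 of which 60 were tested, changed in shares like those of the array. In treated minus untreated islets 8 were higher and 6 lower (23.3% against 28.1%), and in withdrawal minus treated islets 8 were higher and 18 lower (43.3% against 43.8%). After quantile normalization the same counts were 3 and 9, and 11 and 4, so the balance of directions in this list depends on the scaling. The largest difference among them was that of Trpv1, a heat- and capsaicin-gated cation channel of sensory nerves, at -1.35 ± 0.22 in treated minus untreated and 1.5 ± 0.22 in withdrawal minus treated islets (adjusted p = 0.00283 and 0.000959). The chloride transporter Clcn6 (-0.61), the chloride channel Cftr (-0.66) and the mitochondrial calcium uniporter Mcu (-0.55) were also lower in treated than in untreated islets. Higher there were the calcium pump Atp2a3 (1.0; 0.43 after quantile normalization), the sodium pump subunit Atp1b3 (0.81; 0.28), the glucose transporter Slc2a2 (0.68; 0.15) and the plasma membrane calcium pump Atp2b1 (0.55; 0.18). After quantile normalization Atp2a3 still passed, and Atp1b3, Slc2a2 and Atp2b1 did not (adjusted p = 0.0633, 0.426 and 0.288).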

How the data were processed

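Islet RNA on 9 arrays, 3 per group, was analysed. RMA and MAS5 are named per the submitters' processing notes, with roles and versions not given in the sources used here. The log2 scale of the deposited signals was read from their range, and their spread differs between arrays. Precision is limited by the number of arrays. Where replicates were not separate animals, p-values measure only the spread between arrays.

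The table held 31099 probe sets; 57 controls were left out. Of the rest, 20826 had 1 gene symbol, 436 several and 9780 none; symbols were updated through the GRCr8 gene table, used for names only (20758 by gene number, 2 by accession, 66 kept). Those whose mean log2 over the arrays fell in the lowest 33.3% were set aside, and 20695 were fitted with limma 3.58.1 in R 4.3.3 (lmFit, eBayes, a mean per group, no covariate), with Benjamini-Hochberg adjustment over all of them. Figures used Python 3.11.15 and matplotlib 3.10.9.

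Members and lists were chosen with earlier results of these data known. Named with values were up to 12 genes per direction and comparison with the smallest p among those that passed without overlap, and a fixed set of known islet channel genes; the other genes that passed were named after their values were seen. The alternatives were quantile normalization, median centring, no filter or a 50% filter, trend and robust moderation, array weights, leaving out each array, a replicate block, the mean over probe sets and fits of only the 6 arrays compared. The same replicate numbers in all groups are not stated to pair samples; correlations of same-numbered arrays' deviations ran from -0.28 to 0.50. The fit was tested on simulated data.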

Additional observations from a re-analysis of the deposited data

How the results depend on the processing

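The counts of channel genes that passed kept within 1.5 times their value under the alternatives run, except these. In treated minus untreated islets 10 passed without untreated array 2 (10 to 22 over the 9 fits that left out 1 array). In withdrawal minus treated islets 22 passed without withdrawal array 1 (22 to 33). In withdrawal minus untreated islets 13 passed with array weights, and 0 in each of the fits that left out 1 array (0 to 0). In the F test 44 passed with array weights (18 to 31 when leaving out 1 array). The replicate number as a block gave 21 genes in treated minus untreated islets, 33 in withdrawal minus treated islets, 0 in withdrawal minus untreated islets and 27 in the F test; the numbers were not shown to pair the arrays. After median centring 19 and 31 genes passed, 13 higher and 6 lower in treated minus untreated and 13 higher and 18 lower in withdrawal minus treated islets. Quantile normalization without treated array 1 was added after seeing the data and gave 18 and 31. For single genes named in the text, 107 differences were recomputed to 2011 values, of which 1798 kept direction and side of the threshold, 28 passed newly, 134 no longer passed and 51 turned sign; the cause was not tested. With quantile normalization, the sign turned in treated minus untreated islets for Cacna1a (-0.0233), Kcnip3 (-0.22), Scn3a (-0.24) and in withdrawal minus treated islets for Cacna1a (0.11), Kcne2 (-0.0523), Kcnip3 (0.26), Kcnk3 (0.22), Scn3a (0.16). With the mean over all tested probe sets of each gene, the sign turned in treated minus untreated islets for Cacna1d (-0.0459), Cacnb1 (-0.0558), Cacng2 (-0.0128), Kcnj6 (-0.097), Kcnk3 (0.18) and in withdrawal minus treated islets for Cacna1d (0.0197), Kcnj6 (0.0484). With array medians centred, the sign turned in withdrawal minus treated islets for Cacna1g (-0.027), Kcne2 (-0.0126). With array weights, the sign turned in treated minus untreated islets for Kcna5 (-0.0697), Kcnb2 (0.0585), Kcnj8 (-0.27) and in withdrawal minus treated islets for Kcnj8 (0.15), Kcnn3 (0.01). With quantile normalization, treated array 1 left out, the sign turned in treated minus untreated islets for Kcnip3 (-0.11), Kcnj8 (-0.15), Scn3a (-0.17) and in withdrawal minus treated islets for Kcne2 (-0.10), Kcnip3 (0.15), Kcnj8 (0.13), Kcnk3 (0.0968), Scn3a (0.0956). Leaving out single arrays turned the sign of Cacna1a in treated minus untreated islets (-0.0134 to 0.17), Cacna1a in withdrawal minus treated islets (-0.10 to 0.0904), Cacna1g in treated minus untreated islets (-0.12 to 0.0212), Cacna1g in withdrawal minus treated islets (-0.0593 to 0.0824), Cacnb1 in treated minus untreated islets (-0.0177 to 0.15), Kcne2 in withdrawal minus treated islets (-0.0789 to 0.13), Kcnj8 in treated minus untreated islets (-0.17 to 0.18), Kcnj8 in withdrawal minus treated islets (-0.20 to 0.16), Kcnk3 in treated minus untreated islets (-0.12 to 0.0417), Kcnn3 in withdrawal minus treated islets (-0.21 to 0.10), Kcnq1 in treated minus untreated islets (-0.29 to 0.17). Offsets for linear values were not run, since the deposited values are log2. The number of arrays limits what could pass: the SE of a difference in a channel gene ran from 0.11 to 0.40, and the smallest difference that passed was 0.39 in treated minus untreated and 0.30 in withdrawal minus treated islets.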
